A study of Mus musculus with 6 samples.

Results

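The genes described here are Siglech, Tcf4, Spib, Runx2 and Bst2, 5 genes that are widely used to recognise plasmacytoid dendritic cells, taken by gene symbol from the 21914 symbols of the deposited expression table. All 5 passed the filter on low values, which kept 10818 genes that reached 1 FPKM (fragments per length of transcript and size of library) in at least 2 of the 6 libraries. Dendritic cells, which take up antigen and show it to T cells, were sorted by flow cytometry from germ-free C57BL/6 Rag knockout mice, which make no T or B lymphocytes of their own. Peripheral lymph node and spleen were each sampled from un-injected mice, from mice given naive CD4 T cells and from mice given regulatory T cells (Treg), 1 week after the transfer. All 6 groups shared the strain, the Rag knockout and the germ-free state, and each was 1 library. Which Rag gene was deleted, the gating, the age of the mice and the number of mice behind a library are not stated in the labels. Where 3 levels of a tissue are given together, they follow the order un-injected, naive, Treg.

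Plasmacytoid dendritic cells are a rare dendritic cell lineage that senses viral nucleic acids through endosomal Toll-like receptors and releases large amounts of type I interferon. Their identity is set by Tcf4, an E protein that binds E-box motifs, together with the Ets-family factor Spib and the Runt-family factor Runx2, while the inhibitor Id2 blocks E proteins and favours conventional dendritic cells. Siglech encodes a sialic acid-binding lectin that marks these cells in the mouse. Bst2 encodes tetherin, a membrane protein that holds budding virus particles at the cell surface; it marks plasmacytoid dendritic cells in unstimulated mice, and interferon induces it on many other cells. Spib and Tcf4 are also expressed by B cells, and Runx2 is a central factor of bone formation.

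The 5 genes did not behave as a single unit. Tcf4, Spib, Runx2 and Bst2 were each higher in all 3 lymph node libraries than in any spleen library, whereas Siglech was not. All 3 lymph node libraries lay above all 3 spleen libraries for 4 of the 5 genes; the same held for 16.9% of the genes kept. With the libraries scaled to equal totals the count was again 4, against 22.8% of genes. Siglech ran from 0.248 to 13.7 FPKM across the libraries, a 55.1-fold range, with its highest and its lowest value both in spleen. The ranges of the other genes were 4.18-fold for Bst2, 5.23-fold for Spib, 6.34-fold for Runx2 and 7.17-fold for Tcf4.

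**Figure D1:**
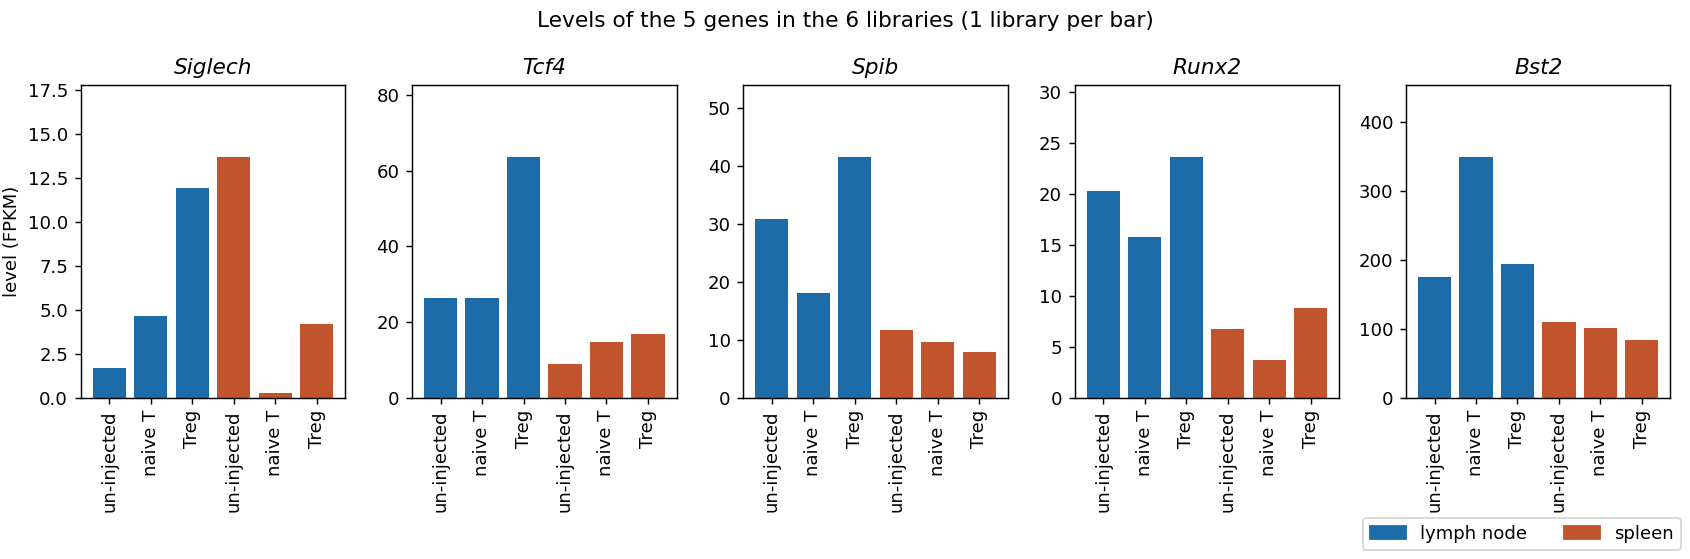
Level in FPKM (y axis, starting at 0 and scaled separately for each gene) of the 5 genes in the 6 libraries, with 1 bar per library, lymph node in blue and spleen in orange. For Tcf4, Spib, Runx2 and Bst2 every blue bar stands above every orange bar, and for Siglech the tallest bar is the un-injected spleen library at 13.7 FPKM.

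The libraries differed in more than these genes. The migratory dendritic cell and Langerhans cell genes summed to 14678, 2286 and 5755 FPKM in lymph node and to between 447 and 714 FPKM in spleen. Neutrophil genes summed to 775 FPKM in the un-injected spleen library and to at most 65.9 FPKM in the other 5. Monocyte genes summed to 3089 FPKM in lymph node after naive T cell transfer and to between 94.3 and 644 FPKM elsewhere. Of the defining genes of B cells, Cd79a reached at most 0.313 FPKM, Pax5 0.0655 FPKM and Ebf1 0.0806 FPKM. Of the 14 genes on the B lineage list, however, 5 passed the filter. On that list 4 genes were higher in all spleen than in all lymph node libraries, against 16.4% of genes. The list summed to 16.1 to 34.5 FPKM in lymph node and to 42.4 to 50.3 FPKM in spleen. The bone-forming genes Sp7, Bglap and Ibsp were listed at 0 in all 6 libraries. Of the 6 genes on that list 2, Alpl and Spp1, passed the filter, and 1 was higher in all spleen libraries, against 16.4% of genes. The bone list summed to 0.809 to 12.7 FPKM in lymph node and to 8.12 to 16.2 FPKM in spleen. In bulk RNA, fewer cells of a type and less RNA per cell cannot be told apart.

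Siglech, the surface lectin, lies on mm10 chromosome 7 from 55768178 to 55778925, on the plus strand (ENSMUSG00000051504). Its promoter is printed first, with the promoters of Spib and Bst2 after it, because these 3 genes differed in course. Siglech had a level that overlapped between the tissues, and Spib a higher level in lymph node. Bst2 was also higher in lymph node and was highest in the naive library there, where most interferon-stimulated genes were high. In spleen the naive library was not above the un-injected one for Bst2. Each sequence is the RefSeq stretch of 300 bases on GRCm38.p6, from 250 bases before the gene's start to 50 bases after it, written 5′ to 3′ on the gene's strand. Siglech spans chr7:55767934-55768233 (plus strand), Spib chr7:44532022-44532321 (minus strand) and Bst2 chr8:71537423-71537722 (minus strand). Capitals mark E-boxes (CANNTG) in Siglech and Spib and overlapping matches of the interferon response element core (GAAA, any 2 bases, GAAA) in Bst2.
Siglech: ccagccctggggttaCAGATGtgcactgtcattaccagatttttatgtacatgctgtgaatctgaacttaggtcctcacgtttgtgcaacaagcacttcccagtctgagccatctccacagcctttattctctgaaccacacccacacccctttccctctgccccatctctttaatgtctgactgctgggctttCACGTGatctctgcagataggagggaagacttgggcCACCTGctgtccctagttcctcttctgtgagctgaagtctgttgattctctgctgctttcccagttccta
Spib: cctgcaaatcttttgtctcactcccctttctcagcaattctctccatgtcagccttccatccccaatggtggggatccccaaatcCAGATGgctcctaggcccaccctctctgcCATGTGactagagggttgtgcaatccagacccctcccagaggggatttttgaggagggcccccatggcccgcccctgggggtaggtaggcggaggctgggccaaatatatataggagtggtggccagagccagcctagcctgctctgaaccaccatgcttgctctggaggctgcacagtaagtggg
Bst2: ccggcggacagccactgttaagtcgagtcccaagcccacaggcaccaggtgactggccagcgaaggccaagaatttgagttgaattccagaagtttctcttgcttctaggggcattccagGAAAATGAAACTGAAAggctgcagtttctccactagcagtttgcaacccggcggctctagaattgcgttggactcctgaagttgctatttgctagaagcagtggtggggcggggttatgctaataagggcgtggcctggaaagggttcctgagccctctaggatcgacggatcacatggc

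The Siglech window held 3 E-boxes, at -235, -56 and -20 bases from the start, and the Spib window 2, at -165 and -136. The Bst2 window also held 2, at -205 and 43, which are left in lower case above. The Runx2 window held 2, at -78 and 36, so E-boxes did not separate these windows. An E-box on either strand is common: 72.3% of 32851 RefSeq promoter windows of this length held at least 1. The interferon response element core on either strand is rarer, at 3.44% of windows, and Bst2 held 2 overlapping matches, at -130 and -124. The Siglech, Spib and Runx2 windows held none. The Runt-family core TGTGGT, or ACCACA on the other strand, occurred 3 times in the Runx2 window and 1 time in the Siglech window, against a match in 16.8% of windows. The composite Ets and interferon regulatory factor motif (GGAA, any 2 bases, GAAA), searched on both strands and present in 2.72% of windows, was in none of the 4 members' windows. Promoters of 4 of the 5 genes were in the RefSeq table.

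Siglech in lymph node stood at 1.68 FPKM in un-injected mice, 4.62 FPKM with naive T cells and 11.9 FPKM with Treg. In spleen it stood at 13.7 FPKM in un-injected mice, 0.248 FPKM with naive T cells and 4.19 FPKM with Treg. The lymph node and spleen ranges overlapped, and the un-injected library was the lowest of the 3 in lymph node and the highest in spleen. Against the un-injected library of the same tissue, the Siglech log2 ratio was 1.23 with naive T cells and 2.52 with Treg in lymph node, and -4.24 and -1.60 in spleen. With a pseudocount of 0.1 or 1 in place of 0.5 the spleen ratio with naive T cells was -5.31 or -3.56. Among the genes kept, Siglech ranked at percentile 13.8 in un-injected lymph node and at percentile 57.9 in un-injected spleen. The authors' deposited table gives Siglech the status of not tested in 2 of its 6 comparisons, both of which set a low library against another.

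The high Siglech value of the un-injected spleen library came with the high neutrophil sum of that library, and natural killer and innate lymphoid genes also summed to 243 FPKM there, against 162 and 191 FPKM in the naive and Treg spleen libraries. Other lists were highest there too. The list of other plasmacytoid-enriched genes summed to 3128 FPKM, against 2383 and 2213 FPKM, and the type 1 conventional list to 1499, against 873 and 1163 FPKM. Monocyte genes summed to 644, against 440 and 368 FPKM. Plasmacytoid regulators did not follow, at 457 against 483 and 474 FPKM. All values of that library summed to 861260, against 655903 and 657560. The part of these cells, or of the library sum, in the Siglech values was not tested. Between the transfers Siglech was 6.26-fold lower with naive T cells than with Treg in spleen and 2.43-fold lower in lymph node.

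Tcf4, the E protein, lies on chromosome 18 from 69343356 to 69689079, on the plus strand (ENSMUSG00000053477). Its levels were 26.3, 26.3 and 63.6 FPKM in lymph node. The spleen levels were 8.87, 14.7 and 16.8 FPKM. The Treg library was the highest of each tissue, and the lowest lymph node library exceeded the highest spleen library. Tcf4 was 2.39-fold higher with Treg than in un-injected mice in lymph node and 1.85-fold higher in spleen. With naive T cells it was level in lymph node, at a log2 ratio of -0.00, and 1.63-fold higher in spleen. In the additive limma model over both tissues, the log2 difference of Treg from un-injected was 1.05 ± 0.36 (standard error, 6 libraries), with an unadjusted p of 0.0298 and an adjusted p of 0.938, so Tcf4 was not called.

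Spib, the Ets-family factor, lies on chromosome 7 from 44525993 to 44532071, on the minus strand (ENSMUSG00000008193). Its levels were 30.8, 18.1 and 41.6 FPKM in lymph node and 11.7, 9.63 and 7.94 FPKM in spleen. In lymph node the Treg library was the highest and the naive library the lowest, while in spleen the Treg library was the lowest. Its paralog Spi1, which encodes the Ets factor PU.1 of most myeloid cells, lay between 238 and 418 FPKM with overlap between the tissues. Spib was 2.26-fold lower with naive T cells than with Treg in lymph node and 1.20-fold higher in spleen.

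Runx2, the Runt-family factor, lies on chromosome 17 from 44495987 to 44814797, on the minus strand (ENSMUSG00000039153). Its levels were 20.3, 15.8 and 23.6 FPKM in lymph node. In spleen they were 6.77, 3.73 and 8.75 FPKM. The order of the 3 states was the same in both tissues, with Treg highest and naive lowest. The log2 difference of naive from Treg in the model was -0.80 ± 0.30 (standard error, 6 libraries), with an unadjusted p of 0.0426 and an adjusted p of 0.963 from limma. Runx2 overlaps Supt3 on the opposite strand, and the table gives both genes 1 joint locus, from 44495987 to 45119290, so reads of the overlap could have been split between them. Supt3 stood at 8.46, 10.1 and 9.92 FPKM in lymph node and 28.9, 17.9 and 19.9 FPKM in spleen, lower in lymph node where Runx2 was higher.

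Bst2, the gene of tetherin, lies on chromosome 8 from 71534255 to 71537456, on the minus strand (ENSMUSG00000046718). It had the highest FPKM of the 5 genes in every library, at 175, 349 and 194 FPKM in lymph node and 109.7, 101 and 83.4 FPKM in spleen. The naive lymph node library stood apart, 1.99-fold above the un-injected and 1.80-fold above the Treg library. In spleen the naive library differed from the un-injected one by a log2 ratio of only -0.12. Bst2 ranked between percentile 91.0 and percentile 97.3 of the genes kept in every library.

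**Figure D2:**
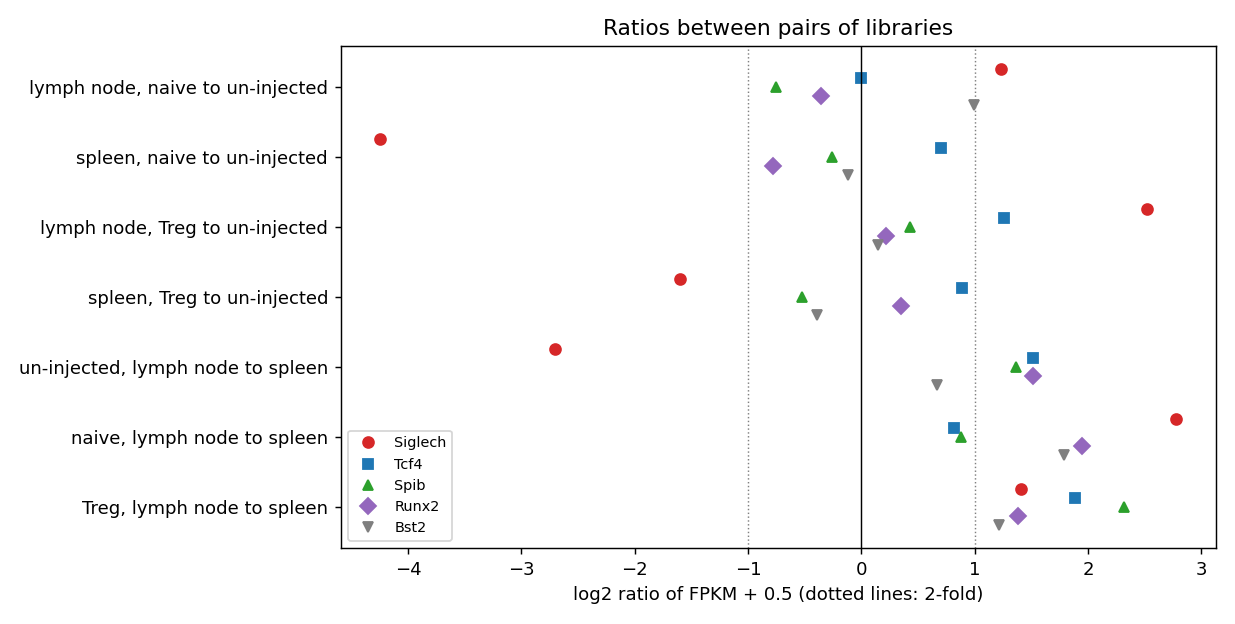
Log2 ratio of FPKM + 0.5 between pairs of libraries (x axis) for 7 comparisons (y axis), with 1 symbol per gene and dotted lines at 2-fold. Siglech runs from -4.24 to 2.77, while the other 4 genes lie to the right of 0 in each of the 3 comparisons of lymph node with spleen.

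The tissue difference was similar in size for 4 of the genes. Over the 3 libraries of each tissue, which differ in transfer, Tcf4 was at 38.7 ± 21.5 FPKM in lymph node and 13.5 ± 4.13 FPKM in spleen (mean ± SD, n = 3 each). Spib was at 30.1 ± 11.7 against 9.74 ± 1.86 FPKM, Runx2 at 19.9 ± 3.94 against 6.41 ± 2.53 FPKM, and Bst2 at 239 ± 95.4 against 98.0 ± 13.4 FPKM. Siglech was at 6.08 ± 5.29 against 6.04 ± 6.90 FPKM. On the log2 scale lymph node exceeded spleen by 1.41 for Tcf4, 1.52 for Spib, 1.61 for Runx2 and 1.22 for Bst2. Each of these 4 differences gave p = 0.1 in a two-sided exact permutation test of 3 against 3 libraries, the smallest p this design allows, so none could pass 0.05. For Siglech the difference was 0.49 with an exact permutation p of 0.8.

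The limma model with terms for tissue and transfer gave spleen minus lymph node log2 differences of -1.37 ± 0.29 for Tcf4, -1.48 ± 0.34 for Spib, -1.54 ± 0.25 for Runx2 and -1.22 ± 0.28 for Bst2 (standard errors, 6 libraries). Their unadjusted p-values lay between 0.00115 and 0.00597 and their adjusted p-values from limma were 0.085 for Tcf4, 0.0909 for Spib, 0.0622 for Runx2 and 0.0916 for Bst2. None of the 5 genes passed 0.05, against 0.684% of all genes, or 74 of 10818. At an unadjusted p under 0.05 stood 4 of the 5, against 25.3% of all genes. For Siglech the difference was -0.34 ± 0.90 (limma adjusted p = 0.826). Which of Tcf4, Spib, Runx2 and Bst2 passed changed with the library left out. Leaving out either library of a state gave the same tissue difference, because the state term then absorbs the library that remains. The 2 fits of a state are thus not separate checks. In this order of genes, the differences were -1.66, -1.79, -1.40 and -0.94 without a naive library. They were -1.33, -1.55, -1.58 and -1.49 without an un-injected library, and -1.13, -1.09, -1.64 and -1.22 without a Treg library.

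State by state, the lymph node to spleen log2 ratio was 1.52, 0.81 and 1.89 for Tcf4 in un-injected, naive and Treg mice, 1.36, 0.88 and 2.32 for Spib, 1.52, 1.94 and 1.38 for Runx2, and 0.67, 1.78 and 1.21 for Bst2. Siglech was at -2.70, 2.77 and 1.41. In Treg mice all 5 genes were at least 2-fold higher in lymph node, against 13.4% of the genes kept. In un-injected mice 3 were, against 21.0% of genes, and Siglech was at least 2-fold lower, against 20.9%. In naive mice 3 were at least 2-fold higher, against 12.2%. No member was lower by 2-fold in lymph node in naive mice (8.94% of genes) or in Treg mice (8.37%). Runx2 was the 1 gene of the 5 that was at least 2-fold higher in lymph node in all 3 states, against 4.04% of genes. With the libraries scaled to equal totals Bst2 did so too, at 2.02-fold in un-injected mice, against 4.79% of genes. Supt3, which shares a joint locus with Runx2, was lower in lymph node in each state. The part of a split of reads between Runx2 and Supt3 in the Runx2 difference was not tested. The migratory dendritic cell list was also higher in lymph node: 7 of its 10 genes were higher in all lymph node than in all spleen libraries, against 16.9% of genes. The part of this list in the tissue difference of the members was not tested.

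Between transfer states, Siglech was the 1 gene of the 5 that passed 2-fold in all 6 comparisons within a tissue, and Bst2 passed it in none on the deposited scale. With the libraries scaled to equal totals, the naive lymph node library exceeded the un-injected one by 2.17-fold for Bst2. With naive T cells 1 gene, Siglech, was at least 2-fold higher in lymph node, against 16.9% of genes. The same gene was at least 2-fold lower in spleen, against 6.01% of genes. With Treg 2 genes, Siglech and Tcf4, were at least 2-fold higher in lymph node, against 11.4% of genes, and Siglech was at least 2-fold lower in spleen, against 5.87%. Comparing naive T cells with Treg directly, Siglech, Tcf4 and Spib were lower by at least 2-fold in lymph node, against 11.4% of genes, and Siglech and Runx2 in spleen, against 3.71%. In the opposite directions 0 of the 5 genes passed 2-fold: against un-injected lymph node none was lower with naive T cells (16.6% of genes) or with Treg (6.91%), and against un-injected spleen none was higher with naive T cells (4.5%) or with Treg (4.51%). None was higher with naive T cells than with Treg in lymph node (9.3%) or in spleen (4.12%). In both tissues at once, 0 of the 5 were at least 2-fold higher or lower with naive T cells, against 1.21% and 1.32% of genes, or with Treg, against 0.795% and 1.21%. Scaling to equal totals changed these counts for Tcf4, which was then 2.10-fold higher with naive T cells and 2.39-fold higher with Treg in spleen. Tcf4 with Treg was then at least 2-fold higher in both tissues, as were 2.55% of genes. Each comparison within a tissue set 1 library against 1 library, so none of these ratios has a replicate check, and the comparisons with un-injected mice share that library.

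In the model over both tissues, 0 of the 5 genes were called with naive T cells, with Treg, or between the 2 transfers, where limma called 0.0% of the genes kept in each. At an unadjusted p under 0.05 limma had 785, 508 and 370 genes in those comparisons, or 7.26%, 4.7% and 3.42%. Tcf4 with Treg and Runx2 between the transfers were the members among them. The naive minus un-injected log2 differences were 0.44 ± 0.34 for Bst2, 0.34 ± 0.36 for Tcf4, -0.49 ± 0.41 for Spib, -0.53 ± 0.30 for Runx2 and -1.24 ± 1.10 for Siglech, with limma adjusted p-values between 0.691 and 0.800. The Treg minus un-injected differences of Bst2, Spib, Runx2 and Siglech were -0.12 ± 0.34, -0.04 ± 0.41, 0.27 ± 0.30 and 0.39 ± 1.10. The authors' deposited table marks none of the 5 genes in its 6 comparisons of library pairs, with a smallest p-value of 0.0366 for Siglech in Treg against un-injected lymph node, a q-value of 0.999, and a p that compares those 2 libraries rather than the conditions.

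The 39 other genes on lists of plasmacytoid dendritic cell regulators, surface molecules, endosomal sensing proteins and enriched transcripts mostly overlapped between the tissues. Of the 38 that passed the filter, 2 (Cd209d and Traf6) were higher in all lymph node than in all spleen libraries, against 16.9% of genes, and 4 (Lair1, Pld4, Rnase6 and Unc93b1) were higher in all spleen libraries, against 16.4%. With fewer libraries such counts can only stay or grow, here and over all genes. Without the naive lymph node library they were 8 (21.1%) and 10 (26.3%), against 28.4% and 27.0% of all genes. Without un-injected lymph node, un-injected spleen or naive spleen the lymph node count was 6, 5 or 4, against 20.1%, 20.9% or 20.6% of all genes. Without Treg lymph node or un-injected spleen the spleen count was 8 or 7, against 20.1% or 19.9%. The remaining 32 overlapped between tissues. In un-injected mice 6 of the 38 were at least 2-fold higher in lymph node and 20 lower, against 21.0% and 20.9% of genes. In naive mice 13 were higher and 2 lower, against 12.2% and 8.94%. In Treg mice 13 were higher and 6 lower, against 13.4% and 8.37%. The median log2 ratios of lymph node to spleen were -1.06, 0.54 and 0.24, so their direction differed between the states. The limma model called 0 of the 38 in any of the 4 contrasts, against 0.684% of all genes between the tissues, where 13 had an unadjusted p under 0.05, against 25.3% of all genes. Unc93b1, which escorts nucleic acid-sensing Toll-like receptors to endosomes, stood at 72.8 to 294 FPKM in lymph node and 313 to 440 FPKM in spleen. Pld4, an endolysosomal nuclease, stood at 33.3 to 288 FPKM in lymph node and 352 to 422 FPKM in spleen.

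Levels of further surface markers and enriched transcripts also differed between the states. Ly6d was listed at 0 in un-injected lymph node, at 9.09 and 11.4 FPKM with naive T cells and Treg there, and at 20.8, 0.878 and 0 FPKM in spleen. Ccr9, a chemokine receptor of these cells, stood at 2.27, 4.72 and 22.3 FPKM in lymph node and at 6.41 FPKM in un-injected spleen and at most 4.87 FPKM in the other spleen libraries. Like Siglech, both were lowest in lymph node in the un-injected library and highest with Treg, and in spleen highest in the un-injected library. How many of the 38 genes, or of all genes, shared this course was not counted, so it cannot be read as particular to these genes. Other markers differed: in the model over both tissues Pacsin1 was at log2 1.20 with naive T cells and -0.33 with Treg against un-injected. Klk1 was at -1.14 and -0.56, and Siglech at -1.24 and 0.39. Cox6a2, a cytochrome oxidase subunit, was at 8.95 FPKM in un-injected spleen and at most 3.59 FPKM elsewhere. Klra17, an inhibitory lectin receptor, was at 4.70, 6.19 and 17.8 FPKM in lymph node and 18.7, 15.1 and 14.2 FPKM in spleen. A value of 0 in this table can be a missing estimate, so no fold is given against it.

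**Figure D3:**
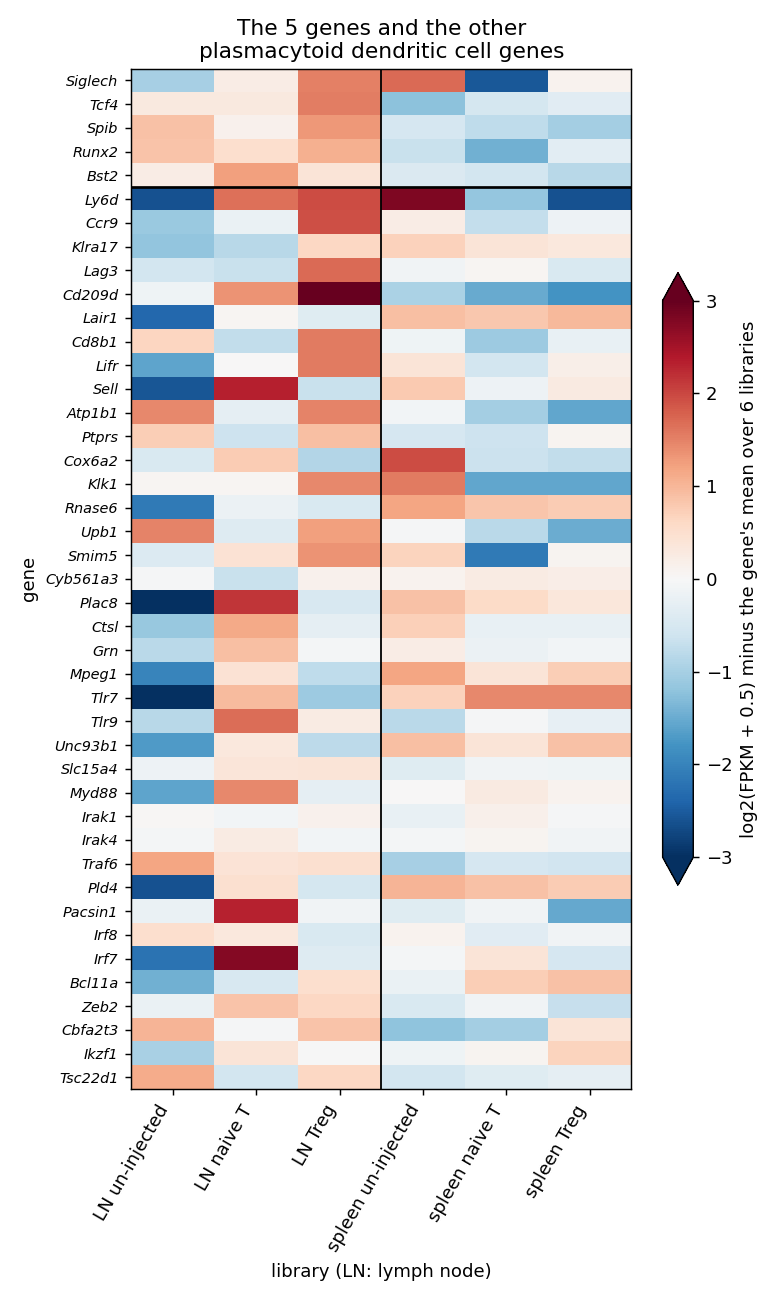
Log2(FPKM + 0.5) of the 5 genes (above the black line) and of the 38 other plasmacytoid dendritic cell genes past the filter (below it), each minus its mean over the 6 libraries, with libraries in columns and the colour scale ending at ±3. The 4 genes Tcf4, Spib, Runx2 and Bst2 are redder in the 3 lymph node columns. The un-injected lymph node column is the lowest for 19 of the 38 other genes, and the share over all genes was not counted.

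With Treg 19 of the 38 other genes were at least 2-fold higher in lymph node and 0 lower, against 11.4% and 6.91% of all genes, with a median log2 ratio of 1.02, against -0.02 over all genes. With naive T cells 20 were at least 2-fold higher and 6 lower there, against 16.9% and 16.6% of all genes, with a median of 1.13 against -0.00. In spleen the medians were -0.25 and -0.23, against -0.04 over all genes with either transfer. The lymph node medians share the un-injected lymph node library, which was the lowest of the 6 for 19 of these genes. How often it was the lowest over all genes was not counted, so the 19 cannot be read as particular to these genes. The median of naive to Treg in lymph node, which leaves that library out, was 0.11, with 12 genes at least 2-fold higher and 11 lower, against 9.3% and 11.4% of all genes. The type 1 conventional list was low in that library too, with a sum of 217 FPKM, against 628 and 490 FPKM with naive T cells and Treg. With naive T cells 7 of its 10 genes were at least 2-fold higher than in un-injected lymph node and 2 were lower, against 16.9% and 16.6% of all genes. The migratory dendritic cell list, in contrast, was highest in un-injected lymph node, at 14678 FPKM.

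Among the regulators, the inhibitor Id2 stood far above Tcf4 in every library. Its levels were 1760, 293 and 748 FPKM in lymph node and 294, 214 and 232 FPKM in spleen. The ratio of Id2 to Tcf4, both per length, was 67.0 in un-injected lymph node and between 11.2 and 33.1 elsewhere, so it was highest in un-injected mice of each tissue, at 33.1 in spleen. The other E protein genes Tcf3 and Tcf12 were at 48.0, 14.6 and 29.4 FPKM and at 16.2, 9.49 and 15.4 FPKM in lymph node. In spleen Tcf3 was at 11.9, 8.62 and 16.2 FPKM and Tcf12 at 8.45, 13.1 and 16.8 FPKM. The spleen minus lymph node log2 difference in the model was -1.57 for Id2, -1.15 for Tcf3 and -0.11 for Tcf12, beside -1.37 for Tcf4. Of 7 regulators of other dendritic cell fates, 3 were higher in all lymph node than in all spleen libraries. The same held for 3 of 10 plasmacytoid regulators and for 16.9% of genes. Cbfa2t3, a corepressor that plasmacytoid dendritic cells use against Id2, was at 61.5, 29.1 and 54.1 FPKM in lymph node and at 12.6, 14.5 and 39.4 FPKM in spleen. Bcl11a, a zinc finger factor of this lineage and of B cells, was at 4.13, 8.57 and 17.4 FPKM in lymph node and at 10.5, 20.3 and 22.6 FPKM in spleen. Bcl11a thus shared with Tcf4 the highest level with Treg in each tissue but not the higher level in lymph node. Of the other Runt-family genes, Runx3 was at 34.1 to 62.2 FPKM in lymph node and 29.0 to 53.9 FPKM in spleen, and Runx1 at 15.9 to 42.1 and 12.6 to 22.0 FPKM, both with overlap.

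Bst2 was set beside the interferon-stimulated genes, since interferon induces it. In the naive lymph node library 25 of 29 interferon-stimulated genes were at least 2-fold above the un-injected library, against 16.9% of all genes, with a median log2 ratio of 3.21, and 4 of the 29 (Mx1, Irf9, Usp18 and Herc6) had a ratio under that of Bst2. In spleen 15 of 29 were, against 4.5% of all genes, with a median of 1.24, and 1 (Ifi27l2a) had a ratio under that of Bst2. Irf7, the factor that drives interferon-alpha transcription, was at 30.6, 976 and 109.5 FPKM in lymph node and at 137, 189 and 102 FPKM in spleen. With Treg the medians of the list were 0.41 and -0.02. All 10 genes of the monocyte list were at least 2-fold higher in the same library, against 16.9% of all genes, and its part in the Bst2 level was not tested.

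**Figure D4:**
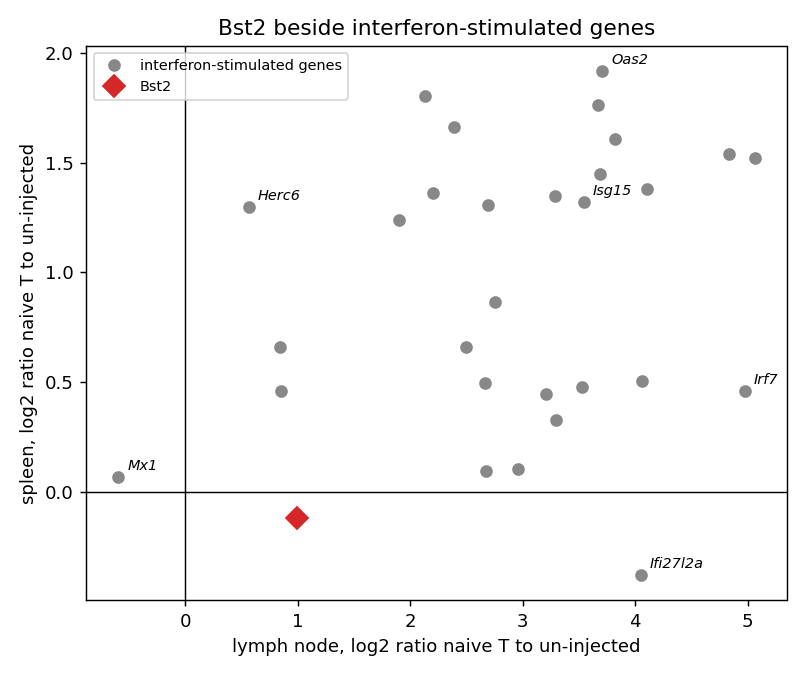
Log2 ratio of naive to un-injected libraries in lymph node (x axis) and spleen (y axis), on FPKM + 0.5, for 29 interferon-stimulated genes (grey) and Bst2 (red diamond). Bst2 sits at 0.99 and -0.12, and 4 of the grey points lie to its left and 1 below it.

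Interferon transcripts themselves were close to the lower end of the table. Of 20 type I and type III interferon genes, 13 were listed at 0 in all 6 libraries and none passed the filter. The highest value was 2.29 FPKM for Ifna14 in the naive spleen library. Ifnb1 was at 0.599 FPKM in lymph node after naive T cell transfer and listed at 0 in the others. The receptors of endosomal sensing were measured: Tlr9, for DNA, was at 7.49, 44.7 and 16.3 FPKM in lymph node and at 7.59, 13.5 and 11.5 FPKM in spleen, and Tlr7, for RNA, at 0.611, 22.6 and 5.16 FPKM and at 18.8, 32.1 and 31.9 FPKM. Tlr9 was thus highest in the naive library of each tissue, as Irf7 was.

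The profiles of the members were also compared by the root mean square difference between mean-centred log2 levels over the 6 libraries, where 0 means the same course. Among the members Spib and Runx2 were the closest pair, at 0.45, followed by Tcf4 and Spib at 0.50 and Tcf4 and Runx2 at 0.54. Bst2 was at 0.64 to 0.72 from these 3. Siglech was at 1.33 to 1.56 from the other 4. The genes closest to each member among 8806 others that reached 5 FPKM were Smim5, Hddc3 and Ctsw for Siglech, at 0.52 to 0.84, and Vprbp, Usp35 and Zfp568 for Tcf4, at 0.15 to 0.24. They were Mllt11, Itsn1 and Ccdc163 for Spib, at 0.12 to 0.18, Zdhhc12, Trim3 and Dnajc1 for Runx2, at 0.11 to 0.25, and Itga5, Gsdmd and Naip2 for Bst2, at 0.16 to 0.22. Smim5, the closest to Siglech, was on the list of plasmacytoid dendritic cell genes and stood at 1.15, 2.47 and 5.06 FPKM in lymph node and 2.99, 0 and 1.83 FPKM in spleen.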

How the data were processed

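Total RNA from sorted dendritic cells gave 6 sequencing libraries, 1 per group and without replicates. The authors deposited 1 table of values treated here as FPKM. Its header names no unit, and FPKM was taken from the fractional values, whose sums differ between libraries (552580 to 861260). Per the submitters' processing notes, the tools were RSEM and edgeR 3.16.5 and the builds mm10 and GRCm38.p4; their roles are not stated there. The authors also deposited comparisons of library pairs with log2 fold changes, p-values and q-values per the file headers; that log2 column was deposited with extreme values for loci near 0 and is treated as a score. How reads were counted, and whether by strand, is not stated. Depth is unknown and no counting interval was derived, so the counting error of low values cannot be stated.

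Values of the 38 symbols on several lines were summed. Genes at 1 FPKM in at least 2 libraries were kept. Differences were tested with limma 3.58.1 in R 4.3.3 on log2(FPKM + 1), with a mean-variance trend, additive in transfer and tissue, with 2 residual degrees of freedom and Benjamini-Hochberg adjustment over all genes at 0.05. Its spread is the departure from parallel courses in both tissues, not the spread between mice. Ratios of 2 libraries used FPKM + 0.5 without a test and understate the change of low genes. Tissues were compared with exact permutation tests (scipy 1.17.1). The limma script was tested on simulated data. Alternatives were pseudocounts, no filter, library totals, median-ratio factors, no trend, 1 term dropped and each library left out. Loci are from GENCODE M21 and sequences from RefSeq.

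The members and gene lists were chosen with earlier results of these data known. Named genes were the 5 members, genes of the lists of related function, first those at least 2-fold apart the same way in both tissues or all states, and the 3 genes of closest profile to each member.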

Additional observations from a re-analysis of the deposited data

Results flagged for a closer look

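The Siglech ratios to the un-injected libraries ran in opposite directions in the tissues, each by at least 2-fold. In lymph node its log2 ratio to the un-injected library was 1.234 with naive T cells and 2.516 with Treg. The spleen ratios were -4.244 and -1.597. Each value sets 1 library against 1 library, and the difference between the tissues was not tested. Among the 5 genes no other gene was at least 2-fold apart in opposite directions.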

How the results depend on the processing

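The count of genes called by limma depended on single libraries. Leaving out 1 library in turn gave 0 to 382 genes with naive T cells, 0 to 17 with Treg, 0 to 104 between the transfers and 0 to 1471 between the tissues. With a pseudocount of 2, or with no trend, 2 genes were called with Treg and 2 between the transfers. Between the tissues, where 74 genes were called, the count was 38 with a pseudocount of 2, 0 with no filter, 23 with library totals, 311 without the state term and 2 with no trend. The cause was not tested. The spleen minus lymph node log2 difference ran, with 1 library left out, from -1.66 to -1.13 for Tcf4, from -1.79 to -1.09 for Spib, from -1.64 to -1.40 for Runx2 and from -1.49 to -0.94 for Bst2, and for Siglech from -1.74 to 0.57. For naive against un-injected it ran from -3.34 to 0.86 for Siglech and from -0.10 to 0.77 for Tcf4. For Treg against un-injected it ran from -1.71 to 2.49 for Siglech, from -0.62 to 0.54 for Spib and from -0.53 to 0.29 for Bst2, and with library totals it was 0.28 for Spib and 0.22 for Bst2. For naive against Treg it ran from -1.04 to 0.13 for Spib. The values of changed sign, with 1 library left out, were 0.86 and 0.13 for Siglech with naive T cells, -1.71 and -0.34 with Treg and 0.57 and 0.14 by tissue, -0.10 for Tcf4, 0.07 and 0.54 for Spib with Treg and 0.02 and 0.13 between the transfers, and 0.29 for Bst2. Of 260 model differences under all alternatives 236 kept direction and side of the threshold. All 20 differences of mean level between the tissues kept direction. Those 20 covered only other pseudocounts and scalings, with no library left out and no threshold applied. The counts of other genes that do not overlap between tissues, alternatives chosen after seeing the data, ran with 1 library left out from 3 to 8 for lymph node, where 20.1% to 28.4% of all genes separate, and from 4 to 10 for spleen, where 19.6% to 27.0% do. Such counts can only stay or grow with fewer libraries. With library totals the lymph node count was 4, against 22.8% of all genes. No member crossed 2-fold with other pseudocounts or median-ratio factors, and 4 ratios did with library totals, for Tcf4 at log2 1.07 and 1.25 in spleen with naive T cells and Treg, and for Bst2 at 1.12 in lymph node with naive T cells and 1.01 between the tissues in un-injected mice. Library totals set the median log2 ratio of all genes to 0.31 with naive T cells and 0.31 with Treg in spleen, 0.25 with Treg and -0.18 between the transfers in lymph node, and 0.27, 0.11 and 0.23 for lymph node to spleen in un-injected, naive and Treg mice. At 2-fold in spleen they gave 1171 genes higher and 345 lower with naive T cells, against 487 and 650, and 1264 and 312 with Treg, against 488 and 635. The share higher with Treg in lymph node was 82.3% with them, against 62.3%, with 392 genes lower against 747. Between the transfers in lymph node it was 33.1%, against 44.9%. For lymph node to spleen it was 75.9% in Treg mice, against 61.6%, and 64.6% in un-injected mice, where 2268 genes were higher and 2266 lower on the deposited scale. With no filter 1261 genes were lower with Treg in lymph node, 739 higher with naive T cells in spleen, and 700 higher between the transfers in spleen, against 446. With a pseudocount of 0.1 the latter had 618 lower, against 401. No paired analysis was possible because the labels number no replicates, so replicates cannot be paired. The tissue comparison is already made within transfer state by the model's term for it, which is the term dropped above. Depth is unknown, and its part in the error of low values cannot be stated.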
